A study of Mus musculus with 8 samples.

Results

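The genes described here are 31 genes of the response to low oxygen and of glycolysis, taken by name, out of 13324 genes that could be tested on the arrays. They comprise 3 transporters (Slc2a1, Slc2a3, Slc16a3), 13 glycolytic enzymes (Hk1, Hk2, Pfkl, Pfkp, Aldoa, Aldoc, Tpi1, Gapdh, Pgk1, Pgam1, Eno1, Pkm, Ldha), 3 regulators of glycolytic flux (Pfkfb3, Pfkfb4, Pdk1), 2 oxygen sensors (Egln1, Egln3) and 10 other hypoxia-induced genes (Vegfa, Adm, Car9, Bnip3, Ankrd37, Ndrg1, Ero1a, P4ha1, P4ha2, Mif). All 31 had a probe, and 30 passed the filter on dim probes. The exception was P4ha2. RNA came from secondary neurospheres of the adult mouse hippocampus, floating colonies of neural stem and progenitor cells, and was read on 8 single-colour arrays in 4 groups of 2. The Sirt1 KO and WT groups were 129/ICR mice of 7 to 9 weeks, with replicate 1 from females and replicate 2 from males in both, and their spheres were grown for 6 days. The resveratrol and DMSO groups were wild-type C57BL/6 males of 7 to 9 weeks, whose spheres were grown for 5 days and then given the compound, at a dose labelled "10 mm", or its solvent for 24 hours. How the Sirt1 allele was made, and in which cells it was lost, is not given in the sources used here.

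Cells that run short of oxygen stabilise the transcription factor HIF-1, because the prolyl hydroxylases that mark its alpha subunit for destruction need oxygen. HIF-1 then raises glucose uptake, glycolytic enzymes, lactate export, angiogenic factors and its own hydroxylases. Neural stem cells in culture depend strongly on glycolysis, and the centre of a sphere is less well supplied with oxygen than its rim. SIRT1 is a NAD-dependent deacetylase, and resveratrol is a plant polyphenol often used as a SIRT1 activator.

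HIF-1 binds DNA at the letters ACGTG or GCGTG, so the 250 bases before each annotated start were searched for both on both strands. Of the 31 genes, 29 had at least 1 window in the RefSeq table (GRCm38.p6), and 27 of them (93.1%) held a match in some window, against 59.6% of the 10658 tested genes with a window. Counted by window, 33 of 40 member windows (82.5%) and 38.6% of all 32851 windows held a match. Member windows were also richer in G and C, with a median of 62.8% against 52.4% for all windows. The 2 genes with a window but no match were Tpi1 and Mif. A match to 5 letters is only a description, ACGTG is also contained in CACGTG, the E-box bound by other factors, and a missing match says only that these letters are not in the window. The windows below belong to Slc16a3 and Vegfa, which had the largest and the third largest Sirt1 KO minus WT differences among these genes. Ndrg1, the second, had no window in the table. Windows of Bnip3, with 5 matches, and of Pfkl and Aldoc, which passed a test below, were added after their values were seen. Matched letters are in capitals. Where a gene had a window outside its RefSeq record, that one is shown. The Slc16a3 window lies inside the gene's RefSeq record, downstream of its outermost end, and the other windows lie outside the gene's record.
Slc16a3, chr11:120948817-120949066, plus strand: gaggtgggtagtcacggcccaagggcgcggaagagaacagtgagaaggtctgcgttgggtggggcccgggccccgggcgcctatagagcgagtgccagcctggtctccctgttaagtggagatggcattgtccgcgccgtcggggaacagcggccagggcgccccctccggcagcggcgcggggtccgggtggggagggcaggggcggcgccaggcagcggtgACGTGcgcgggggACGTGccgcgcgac
Vegfa, chr17:46032378-46032627, minus strand: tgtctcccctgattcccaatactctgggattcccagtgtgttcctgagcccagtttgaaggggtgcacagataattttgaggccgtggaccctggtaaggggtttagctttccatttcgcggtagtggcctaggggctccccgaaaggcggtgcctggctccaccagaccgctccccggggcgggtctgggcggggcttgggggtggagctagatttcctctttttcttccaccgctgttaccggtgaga
Bnip3, chr7:138909507-138909756, minus strand: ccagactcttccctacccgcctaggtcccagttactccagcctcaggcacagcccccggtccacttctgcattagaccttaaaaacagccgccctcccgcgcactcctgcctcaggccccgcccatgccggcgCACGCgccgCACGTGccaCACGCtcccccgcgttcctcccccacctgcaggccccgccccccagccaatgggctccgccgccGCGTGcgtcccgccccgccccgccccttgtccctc
Pfkl, chr10:78009808-78010057, minus strand: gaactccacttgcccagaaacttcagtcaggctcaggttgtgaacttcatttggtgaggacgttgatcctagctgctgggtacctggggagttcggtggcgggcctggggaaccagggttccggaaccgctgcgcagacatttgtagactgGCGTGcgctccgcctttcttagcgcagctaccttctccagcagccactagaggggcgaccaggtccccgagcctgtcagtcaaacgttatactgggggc
Aldoc, chr11:78322823-78323072, plus strand: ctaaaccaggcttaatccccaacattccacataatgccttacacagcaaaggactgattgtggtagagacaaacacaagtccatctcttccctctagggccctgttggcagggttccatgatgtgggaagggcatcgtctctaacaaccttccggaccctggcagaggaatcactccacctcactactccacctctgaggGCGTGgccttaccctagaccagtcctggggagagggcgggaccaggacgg
In Slc16a3 the matches began 27 and 14 bases before the start. The Vegfa window shown had none, and the other Vegfa window, chr17:46025164-46025413 inside the gene's record, held 2, which began 218 and 211 bases before its start. Aldoc also had another window inside its record, with 1 match. In Bnip3 they began between 117 and 35 bases before the start and include an E-box, in which the letters match on both strands.

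Each level is log2 signal after subtracting that array's 75th percentile, so that 0 is the brightness of that percentile and 1 is a doubling. Probe chemistry differs between genes, so levels of different genes are not compared. Array brightness went with the replicate number. The 75th percentile signal ranged from 715.9 to 871 on the 4 replicate 1 arrays and from 248.7 to 376.6 on the 4 replicate 2 arrays, and 53.04% to 71.95% of probes were well above background. The Sirt1 transcript itself read 0.42 and -0.07 in Sirt1 KO, 0.16 and 0.17 in WT, 0.09 and 0.31 in resveratrol and 0.10 and 0.10 in DMSO. The place of its probe relative to the deleted part is not known here, so this checks nothing. Against the labelled cell type, the summed linear level of 9 stem and progenitor markers was between 356.2 and 658.3 on every array. Glial markers were also present. The sums were 58.07 to 139.9 for 8 astrocyte markers and 135.8 to 205.7 for 7 oligodendrocyte lineage markers. In contrast, 5 of 6 endothelial markers and 4 of 7 microglial markers were not well above background on any array. Such sums do not give the share of each cell type.

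The largest differences among these genes lay between replicate 1 and replicate 2. Vegfa, the vascular growth factor, read 5.55 and 0.90 in Sirt1 KO replicates 1 and 2, 3.81 and -0.22 in WT, 5.73 and 1.02 in resveratrol, and 5.61 and 2.29 in DMSO. Each replicate 1 array was higher than every replicate 2 array. The difference, replicate 1 minus replicate 2, was 4.35 (SE 0.28, limma adjusted p = 3.14e-05) in the WT and Sirt1 KO arrays and 4.01 (SE 0.28, limma adjusted p = 6.43e-05) in the DMSO and resveratrol arrays. The error behind these p-values, and behind the replicate counts below, is how alike the gap was between the groups compared. It does not measure the spread among animals or cultures of the same replicate number. In the first pair of groups the replicate number is also sex, female against male. Both replicate 2 arrays there were also on another slide than the replicate 1 arrays and scanned on another day. In the second all 4 arrays are from males, so sex does not separate those replicates, but slide does. Fewer cells of a type and less RNA per cell cannot be told apart in such bulk samples.

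Most other hypoxia-induced genes split the same way, but Car9 and Mif did not. Car9 differed by -0.48 in WT and Sirt1 KO and by 0.16 in DMSO and resveratrol. Mif differed by -0.39 and -0.02. Ankrd37, an ankyrin-repeat protein gene, read 2.32 and -1.11 in Sirt1 KO, 1.40 and -2.10 in WT, 2.28 and -0.09 in resveratrol, and 1.83 and 1.02 in DMSO. All 4 replicate 1 arrays were above all 4 replicate 2 arrays, with the DMSO pair closest together. The difference was 3.46 (SE 0.30) between the WT and Sirt1 KO replicates and 1.59 (SE 0.30) between the DMSO and resveratrol replicates. P4ha2, a collagen prolyl 4-hydroxylase, read -0.50, -2.37, -0.27 and -0.20 on the replicate 1 arrays of Sirt1 KO, WT, resveratrol and DMSO. It was not well above background on any replicate 2 array, where it read between -5.63 and -5.50. That puts replicate 1 at least 6.34-fold higher in WT and Sirt1 KO and at least 22.9-fold higher in DMSO and resveratrol, taking the higher of the dimmest measured signal and the probe's own as the bound.

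The lactate exporter and the glucose carriers followed. Slc16a3, the exporter MCT4, differed by 3.65 (SE 0.16, adjusted p = 2.57e-05) between the replicates of WT and Sirt1 KO and by 3.05 (SE 0.16, adjusted p = 6.21e-05) between those of DMSO and resveratrol, both in limma. Slc2a3, the neuronal-type glucose carrier GLUT3, differed by 2.13 and 2.53 (SE 0.26 each). Its replicate 1 levels started at 1.73 and its replicate 2 levels ended at 0.78, so they did not overlap. Slc2a1, the widespread carrier GLUT1, differed by 1.38 and 1.45 (SE 0.21 each) with the WT replicate 1 array, at 1.90, just under the resveratrol replicate 2 array, at 1.91.

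Both oxygen sensors were higher in every replicate 1 array than in any replicate 2 array. These prolyl hydroxylases both inactivate HIF and are induced by it. Egln1 differed by 1.72 and 2.01 (SE 0.21 each). Egln3 read 1.75 and -0.21 in Sirt1 KO, 0.60 and -0.70 in WT, 1.64 and -0.29 in resveratrol, and 1.34 and 0.18 in DMSO. Of the flux regulators, Pdk1, the kinase that closes pyruvate dehydrogenase, and Pfkfb3, which makes the activator of phosphofructokinase, passed the test in both arms, and Pfkfb4 in neither.

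The glycolytic enzymes divided among themselves. Hk2, the inducible hexokinase, and Pfkl, the liver-type phosphofructokinase, were higher in replicate 1 by 1.66 (SE 0.28) and 1.54 (SE 0.15) in WT and Sirt1 KO and by 1.63 (SE 0.28) and 1.67 (SE 0.15) in DMSO and resveratrol. The bright enzymes of the lower pathway had small differences of either sign. Gapdh, a classic reference transcript, read 7.22 and 7.22 in Sirt1 KO, 7.03 and 7.15 in WT, 8.08 and 7.86 in resveratrol, and 7.66 and 7.78 in DMSO. Ldha, the lactate dehydrogenase A subunit, was lower in replicate 1, with differences of -0.43 (SE 0.14, limma adjusted p = 0.0255) in WT and Sirt1 KO and -0.41 (SE 0.14, limma adjusted p = 0.0355) in DMSO and resveratrol, but a fainter second probe for it gave 0.56 and 0.38. The direction of such bright genes depends on scaling: after quantile normalization the Ldha differences were 0.70 and 0.67, and Aldoa in WT and Sirt1 KO was 0.98 where the 75th percentile scale gave -0.40. Aldoc and Mif in WT and Sirt1 KO, and Pkm in DMSO and resveratrol, turned in the same way. The median of all genes also moved with scaling, from -0.25 to -0.08 in WT and Sirt1 KO and from -0.19 to -0.06 in DMSO and resveratrol.

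Counted over the 30 genes, 18 were higher and 4 lower in replicate 1 at a limma adjusted p under 0.05 in WT and Sirt1 KO, where 54.9% of all tested genes passed, 15.8% as higher and 39.1% as lower. In DMSO and resveratrol 20 were higher and 2 lower, where 47.9% of all genes passed, 14.7% as higher and 33.2% as lower. Pfkp and Hk1 were counted as higher, at 0.77 and 0.33 in WT and Sirt1 KO, but their fainter probes did not all go that way. A second Pfkp probe gave -0.72 there and -0.31 in DMSO and resveratrol. Other kept Hk1 probes ran from -0.36 to 1.14 in WT and Sirt1 KO. The medians over the 30 genes were 1.19 and 1.17. Without either Sirt1 KO array, which leaves the WT pair, the first was 0.69. By role, the medians in WT and Sirt1 KO and in DMSO and resveratrol were 2.14 and 2.53 for transporters, 1.68 and 1.78 for oxygen sensors, 1.74 and 1.93 for the other hypoxia-induced genes and -0.16 and 0.15 for glycolytic enzymes. Across all 4 groups 19 genes were higher and 3 lower in replicate 1 every time, against 21.3% and 44.2% of all genes. In 9 of them no replicate 2 array reached a replicate 1 array, which 13.2% of all genes showed, and in 0 were the arrays separated the other way, as 32% of all genes were. The plot of replicate differences shows the gap between these genes and the bright enzymes.

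**Figure D1:**
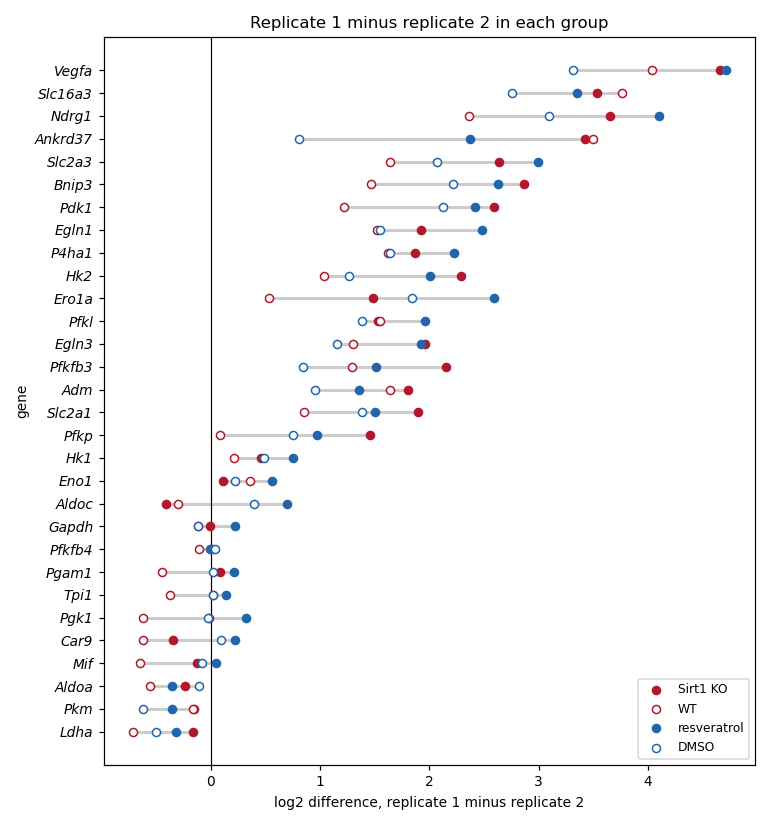
Log2 difference, replicate 1 minus replicate 2, for each of the 30 tested genes (rows) in Sirt1 KO, WT, resveratrol and DMSO (points), with a line over their range. Vegfa lies at the top, between 3.32 and 4.71 in the 4 groups, and the bright glycolytic enzymes lie near 0.

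Within every group the 2 replicates lay on different slides, so slide and replicate number cannot be told apart inside a group. WT replicates were on slides 1 and 3 and Sirt1 KO replicates on slides 2 and 3. DMSO and resveratrol replicates were on slides 1 and 2. Across groups slide did not follow the replicate number throughout. Slide 2 held the Sirt1 KO replicate 1 array together with the replicate 2 arrays of resveratrol and DMSO. On that slide 18 of the 30 genes were higher on the Sirt1 KO 1 array than on both others (31.3% of all genes) and 9 were lower (56.6%). Vegfa there was 5.55 in Sirt1 KO 1 against 1.02 in resveratrol 2 and 2.29 in DMSO 2. The 9 lower genes were Aldoa, Tpi1, Gapdh, Pgk1, Pgam1, Eno1, Pkm, Ldha and Mif, a cytokine. Strain, sex, Sirt1 genotype and treatment also differ between those arrays, so the replicate number cannot be told apart from them there. Array brightness went with the replicate number, and its part in these differences was not tested.

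**Figure D2:**
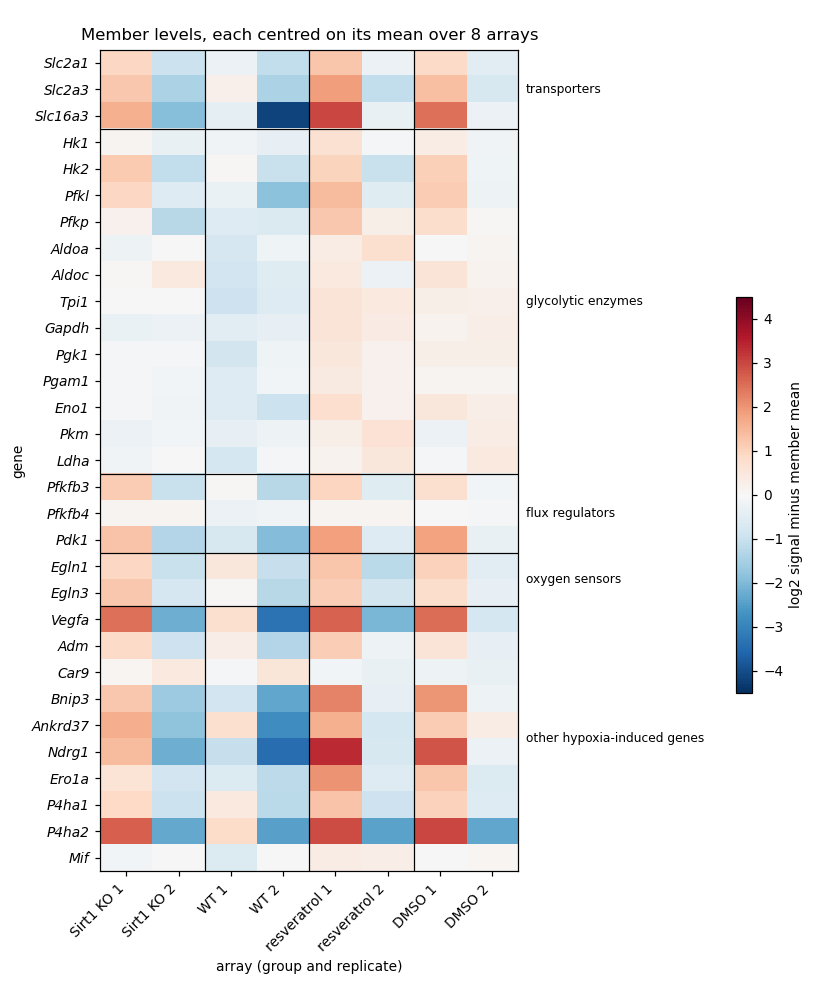
Level of each of the 31 genes (rows, by role) on each of the 8 arrays (columns), as log2 signal minus that gene's mean over the arrays. In Sirt1 KO, resveratrol and DMSO the replicate 1 column is red and the replicate 2 column mostly blue for the transporters and for hypoxia-induced genes such as Vegfa, while WT 1 is paler. WT 2 holds the lowest value of Slc16a3, at -2.75, and of Ndrg1, at -4.29, before centring.

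Next to that spread, most of these genes read higher in Sirt1 KO than in WT, and 4 of them passed a test that takes the replicate number into account. In 24 of 30 genes the Sirt1 KO array was higher than the WT array in both replicate pairs and in 0 lower in both, while 23.4% of all genes were higher and 32.5% lower. The median difference was 0.50, with 0.84 in replicate pair 1 and 0.24 in pair 2, where all genes had a median of -0.03. In 6 genes both Sirt1 KO arrays were above both WT arrays (7.58% of all genes). With the group means alone, limma called 0 of 30 genes and 0% of all 13324 genes, and at an unadjusted p under 0.05 it had 0 of the 30 and 158 of all. Arrays of the same replicate number deviated together, and with the replicate number as a block limma called 4 of the 30, all higher, where it called 0.428% of all genes and 0.338% as higher. The error of that fit comes from how alike the pairs were, and leaves out the spread between replicates. With quantile normalization as well, 2 passed, Slc16a3 and Aldoc, where 25 of all 13324 genes did. Pfkl and Tpi1 did not pass there.

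Slc16a3 was the largest and passed that test. It read 3.02 and -0.51 in Sirt1 KO, against 1.01 and -2.75 in WT. The groups overlapped, because the Sirt1 KO replicate 2 array lay below the WT replicate 1 array, but the gap within the pairs was 2.01 and 2.24. The difference was 2.12 (SE 1.84, adjusted p = 1 without the block, SE 0.16 and adjusted p = 0.00783 with it, both limma).

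Within the enzymes, Pfkl read 2.10 and 0.57 in Sirt1 KO, against 0.87 and -0.68 in WT. The pairs were nearly equal, at 1.23 and 1.24, and the blocked limma test gave adjusted p = 0.0243. Its platelet-type relative Pfkp gave pair differences of 0.78 and -0.60. Aldoc, the brain aldolase, read 5.72 and 6.13 in Sirt1 KO, against 4.82 and 5.12 in WT. Both Sirt1 KO arrays were above both WT arrays, and the difference of 0.95 had SE 0.11 and adjusted p = 0.0161 in blocked limma. Aldoa, its widely expressed relative, differed by 0.36, with pairs of 0.52 and 0.20. Tpi1, triosephosphate isomerase, read 6.32 and 6.29 in Sirt1 KO, against 5.37 and 5.75 in WT, with no overlap and a blocked limma adjusted p of 0.0497. Eno1, enolase, was likewise higher without overlap, at 4.08 and 3.98 in Sirt1 KO, against 3.55 and 3.20 in WT, but did not pass.

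Hypoxia-induced genes outside the pathway had larger differences and larger spread. Ndrg1, a stress-induced gene, read 0.56 and -3.09 in Sirt1 KO, against -1.93 and -4.29 in WT, and the WT 2 array was not well above background. Its difference of 1.85 had pairs of 2.49 and 1.20 and a blocked limma adjusted p of 0.0586. Vegfa differed by 1.43, with pairs of 1.74 and 1.12, and all 4 of its probes gave between 1.35 and 1.96. Bnip3, a mitophagy receptor, read 3.92 and 1.06 in Sirt1 KO, against 1.85 and 0.38 in WT. Both were higher in each pair, with a blocked limma adjusted p of 0.0857 for either gene. Ankrd37 differed by 0.96, with pairs of 0.92 and 0.99.

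Pdk1 read 2.17 and -0.42 in Sirt1 KO, against 0.17 and -1.05 in WT, a difference of 1.31 with pairs of 2.00 and 0.63. Pfkfb3, Pfkfb4, Egln1, Egln3 and Slc2a1 were higher in both pairs, by 0.23 to 0.82 on average, and so were Hk1, Gapdh, Pgk1, Pkm, Ldha, Adm, Ero1a and P4ha1. The genes whose pairs disagreed in sign were Slc2a3, Hk2, Pfkp, Pgam1, Car9 and Mif. Only pair 2 shared a slide, and pair 1 did not. With slide as a block the median was 1.01, where all genes had a median of -0.11. In that fit 0 of 30 genes and 0% of all genes passed. Leaving out the Sirt1 KO replicate 1 array brought the median to 0.024, and leaving out WT replicate 2 gave 0.29. Without WT replicate 1 it was 1.004, and without Sirt1 KO replicate 2 it was 1.24. Each of these fits sets unlike replicate numbers against each other, so the replicate gap enters it by construction.

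**Figure D3:**
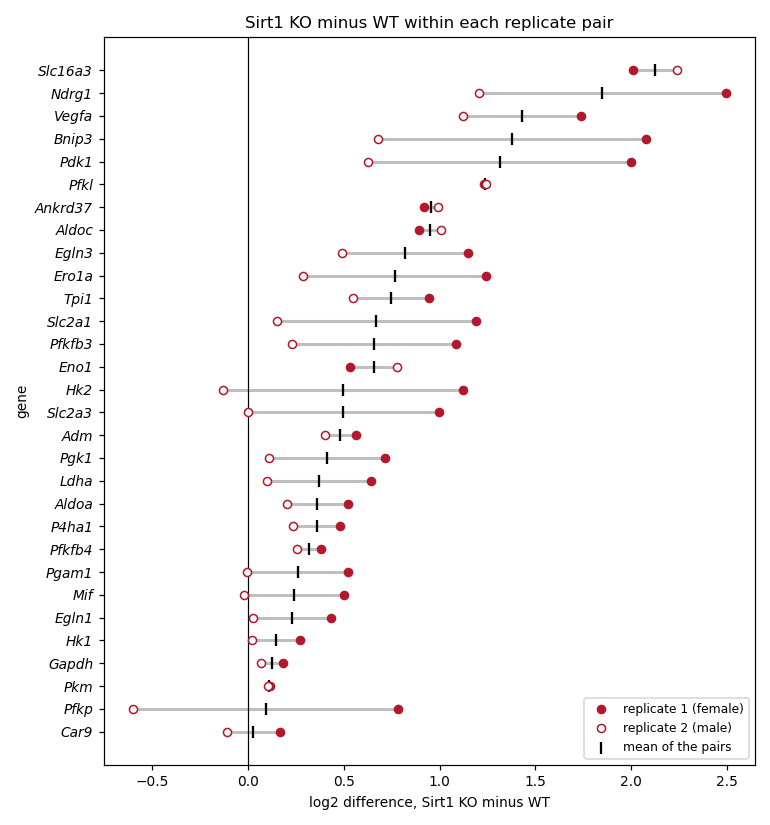
Log2 difference, Sirt1 KO minus WT, for each of the 30 tested genes (rows) in replicate pair 1 (filled, female) and pair 2 (open, male), with the mean as a bar. Slc16a3 is at the top with pairs at 2.01 and 2.24, and 24 genes have both points right of 0.

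Astrocyte markers were also higher in Sirt1 KO. Of the 8 listed, 5 were higher in both pairs and 0 lower in both, against 23.4% and 32.5% of all genes, with a median of 0.56 and summed linear levels of 72.9 and 139.9 in Sirt1 KO, against 58.07 and 115.4 in WT. Fgfr3, a growth factor receptor of astrocytes, passed the blocked limma test, with adjusted p = 0.0386. It read 2.31 and 0.53 in Sirt1 KO, against 1.07 and -0.68 in WT. Aldoc is itself typical of astrocytes in the brain. Each of the 8 was well above background on some array. The part of astrocyte content in the differences above was not tested.

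Between resveratrol and DMSO 0 of these genes passed any test. The median difference was 0.08, with 0.29 in pair 1 and -0.08 in pair 2. In 13 genes both pairs were higher and in 2 lower, against 35.5% and 33% of all genes. Limma called 0 of the 30 and 0% of all genes without the block. With it, limma again called 0 of the 30, while 0.548% of all genes passed. At an unadjusted p under 0.05 the counts of members were 0 without the block and 4 with it, where 1.52% and 14.2% of all genes were under it.

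Among the genes with the same sign in both pairs, Aldoa had the largest difference. It read 9.10 and 9.46 in resveratrol, against 8.78 and 8.88 in DMSO, a difference of 0.45 with a blocked limma adjusted p of 0.134. Hk2 read 1.24 and -0.77 in resveratrol, against 1.31 and 0.05 in DMSO, a difference of -0.44. Pkm, pyruvate kinase, read 5.19 and 5.55 in resveratrol, against 4.64 and 5.26 in DMSO, and its blocked limma adjusted p was 0.138. Ero1a, an oxidase of the endoplasmic reticulum, read 2.54 and -0.05 in resveratrol, against 1.77 and -0.07 in DMSO. Adm, the vasodilator adrenomedullin, read 3.47 and 2.11 in resveratrol, against 2.94 and 1.99 in DMSO. Aldoa was clear of overlap, and Hk2, Pkm, Ero1a and Adm overlapped.

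Vegfa read 5.73 and 1.02 in resveratrol, against 5.61 and 2.29 in DMSO, so its pairs were 0.12 and -1.28. Ankrd37 had pairs of 0.46 and -1.10. Leaving out single arrays moved the median between -0.53 and 0.74. It was negative without resveratrol replicate 1 or DMSO replicate 2, and positive without DMSO replicate 1 or resveratrol replicate 2. Each such fit sets unlike replicate numbers against each other. The replicate gap enters it by construction, so it does not show how stable the sign is. The unblocked 95% interval for Slc16a3 ran from -4.16 to 4.60 and the blocked interval from -0.15 to 0.59.

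**Figure D4:**
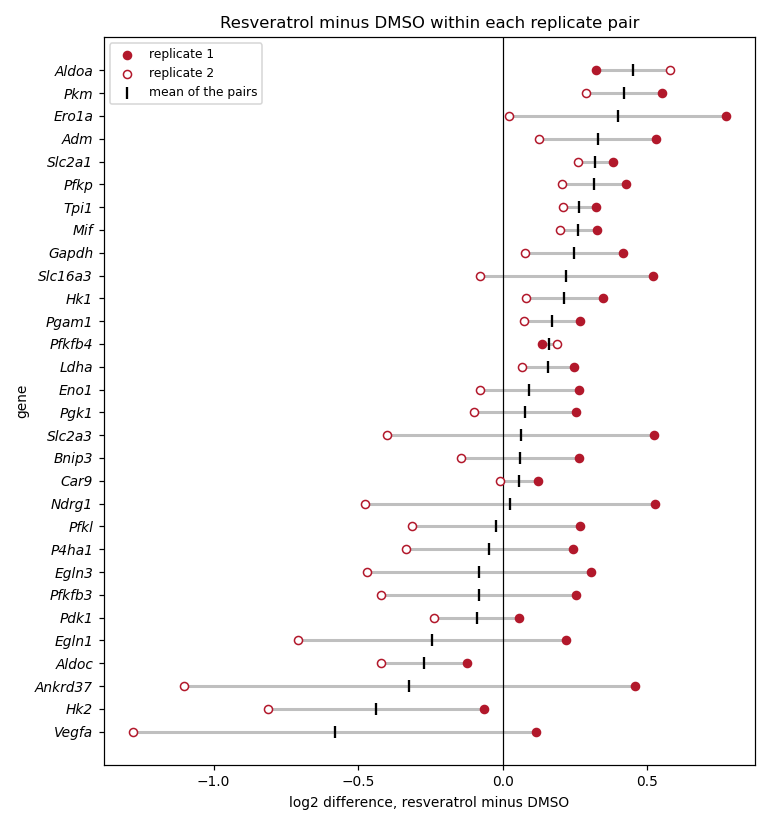
Log2 difference, resveratrol minus DMSO, for each of the 30 tested genes (rows) in replicate pairs 1 (filled) and 2 (open), with the mean as a bar. The pairs of Vegfa and Ankrd37 lie on opposite sides of 0.

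The Sirt1 KO difference and the resveratrol difference were compared gene by gene. Without the block limma called 0 of 30 genes (0% of all), with 0 at an unadjusted p under 0.05. With the block 2 passed, where 0.368% of all genes did. Slc16a3 differed by 1.90 (SE 0.23, adjusted p = 0.0188) and Aldoc by 1.22 (SE 0.16, adjusted p = 0.0256) in limma. The 2 pairs of groups also differ in strain, in the sex of replicate 1, in slides and in culture. These cannot be told apart from the genotype and the compound in this comparison. The Aldoc pairs were 0.90 and 1.01 for Sirt1 KO minus WT, and -0.12 and -0.42 for resveratrol minus DMSO. The median over the 30 genes was 0.42 and ran between -0.10 and 1.30 when single arrays were left out. Those fits again set unlike replicate numbers against each other.

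The WT spheres of 129/ICR mice stood below the DMSO spheres of C57BL/6 mice. These groups differ in strain, in solvent and in the sex of replicate 1. Their replicate 2 arrays also differ in slide and scan day. None of these can be told apart. The comparison shares its WT arrays with Sirt1 KO minus WT and its DMSO arrays with resveratrol minus DMSO. Replicate numbers do not pair these groups, since number 1 is female in WT and male in DMSO. In 29 of 30 genes WT was lower than DMSO at both numbers and in 1, Car9, higher, against 27.7% and 32.6% of all genes, with a median of -0.88. In 16 the WT arrays lay wholly below the DMSO arrays (12.7% of all genes). Without the block limma called 0 of the 30 (0.0751% of all genes), with 3 at an unadjusted p under 0.05, where 5.61% of all genes were under it. With slide as a block 0 passed, where 1.08% of all genes did, and the median was -0.61. Leaving out DMSO replicate 1 brought the median to -0.55, and leaving out WT replicate 1 or DMSO replicate 2 brought it to -1.32. In these fits too, unlike replicate numbers are set against each other.

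Ndrg1 read -1.93 and -4.29 in WT, against 1.97 and -1.13 in DMSO, a difference of -3.53 (SE 1.84, limma adjusted p = 0.9998). Slc16a3 read 1.01 and -2.75 in WT, against 3.91 and 1.16 in DMSO, a difference of -3.41 (SE 1.84, limma adjusted p = 0.9998). WT replicate 2 was the lowest array for both. Bnip3 read 1.85 and 0.38 in WT, against 4.69 and 2.47 in DMSO, and did not overlap. None of these 3 differences passed the test.

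Vegfa, at -2.16, and Pdk1, at -2.07, followed and did not pass. All 13 glycolytic enzymes had negative differences, and 0 of them passed. Eno1 read 3.55 and 3.20 in WT, against 4.65 and 4.43 in DMSO. It had an unadjusted p of 0.00752 (limma adjusted p = 0.445), against 0.0360 for Aldoc and for Tpi1, the other members under 0.05. Car9, the carbonic anhydrase that acidifies the surroundings of hypoxic cells, read -1.95 and -1.33 in WT, against -2.10 and -2.19 in DMSO, and its difference of 0.51 did not pass. In the same comparison oligodendrocyte lineage markers had a median of -0.93, with 5 of 7 lower and 0 higher at both numbers. Of 8 astrocyte markers 4 were lower and 3 higher at both numbers, with a median of -0.64, against 27.7% lower and 32.6% higher of all genes. Summed linear levels of the astrocyte markers were 58.07 and 115.4 in WT, against 99.9 and 102.2 in DMSO. Gfap, the astrocyte filament gene, read -7.66 and -5.73 in WT, against -3.40 and -3.18 in DMSO. It differed by -3.41 (limma adjusted p = 0.219). On WT 2 it read below P4ha2, which was not well above background there at -5.63, so the size of its difference is uncertain. The part of these cell types in the result was not tested.

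**Figure D5:**
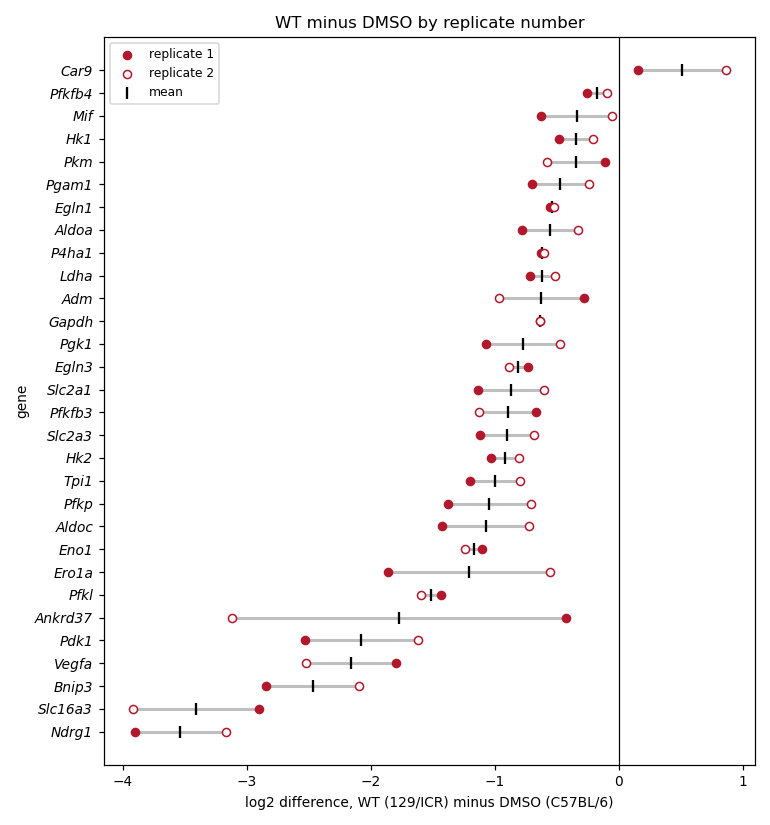
Log2 difference, WT minus DMSO, for each of the 30 tested genes (rows) at replicate numbers 1 (filled) and 2 (open), which do not pair these groups, with the mean as a bar. Ndrg1 and Slc16a3 are lowest, at -3.53 and -3.41, and Car9 alone has both points right of 0.

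Further genes of the pathway were counted from lists written beside the members. Of 33 measured of 36 further hypoxia-induced genes, 25 were higher in Sirt1 KO than in WT in both pairs and 0 lower in both, against 23.4% and 32.5% of all genes, with a median of 0.43. Angptl4, a lipase inhibitor, passed the blocked limma test, at -1.88 and -1.42 in Sirt1 KO, against -3.51 and -2.65 in WT (adjusted p = 0.0386). Selenbp1 and Ppp1r3c differed by 1.40 and 1.32 and did not pass. In resveratrol against DMSO, Hmox1, heme oxygenase, passed the blocked limma test, at 2.91 and 2.72 in resveratrol, against 1.92 and 1.01 in DMSO (adjusted p = 0.0242). In WT against DMSO 23 of the 33 were lower and 2 higher at both numbers, against 27.7% and 32.6% of all genes, and 0 passed, with 2 at an unadjusted p under 0.05 in limma. Between replicates, 18 were higher and 6 lower in WT and Sirt1 KO, and 19 higher and 2 lower in DMSO and resveratrol, beside the shares of all genes given above.

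Of 11 genes that build or restrain HIF, 10 were measured. Their Sirt1 KO minus WT differences had a median of -0.02 and ran from -0.49 to 0.20. In limma 0 of them passed in Sirt1 KO against WT or in resveratrol against DMSO, with or without the block, and without it 0 and 1 had an unadjusted p under 0.05. The largest of these differences was 0.77, for Cited2, in resveratrol against DMSO. Between replicates 5 were higher and 1 lower in WT and Sirt1 KO, against 15.8% and 39.1% of all genes. In DMSO and resveratrol 5 were higher and 0 lower, against 14.7% and 33.2%. Arnt2, a partner of HIF alpha subunits, was higher in replicate 1 by 1.44 and 0.84, and Epas1, the HIF-2 alpha subunit, by 0.69 and 1.24. Hif3a had -0.88 and 0.83, and Hif1a, the oxygen-controlled subunit of HIF-1, had -0.07 and 0.07. Cited2, Arnt2, Epas1 and Hif3a were chosen after their values were seen. HIF is controlled largely at the protein level, which arrays do not measure.

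Of 23 measured of 28 further glycolysis genes the median was 0.20. Eno2, the neuronal enolase, read 2.007 and -2.002 in Sirt1 KO, against -2.04 and -3.13 in WT, and its blocked limma adjusted p was 0.0917. Pgam2 differed by 0.81. Of 23 measured of 24 mitochondrial respiration genes, 2 were higher and 9 lower in both Sirt1 KO pairs, against 23.4% and 32.5% of all genes, with a median of -0.04. Between replicates 16 passed as lower in replicate 1 in WT and Sirt1 KO and 17 in DMSO and resveratrol, against 39.1% and 33.2% of all genes. The medians were -0.68 and -0.80. Many of these genes are bright, and their direction under other scalings is not given here.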

How the data were processed

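RNA was labelled with Cy3 and hybridised to 8 Agilent arrays, 1 per sample, then read in Agilent Feature Extraction (10.7 in the submitters' processing notes, 10.7.3.1 in the files). Per the file headers, the deposited intensity of each spot is a processed signal, already background-corrected by that software. The series' value table holds log2 values whose exact processing the authors do not state in the sources used here. Here spots flagged as outliers and the 1639 control spots of 45018 were left out, spots of a probe were averaged, and log2 intensity minus each array's 75th percentile was used. Of 41174 probes, 26918 were named through RefSeq accessions, and 14256 stayed unnamed. A probe was kept if well above background on both arrays of some group (26352 probes), and the brightest kept probe stood for its gene (13324 genes). No spot was saturated. The number of arrays limits the precision.

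Tests used limma 3.58.1 in R 4.3.3 (lmFit and eBayes with an intensity trend, 4 group means, two-sided, Benjamini-Hochberg over all 13324 genes, threshold 0.05). A second fit had the replicate number within WT and Sirt1 KO, and within DMSO and resveratrol, as a block. It was used for comparisons inside those pairs of groups, since WT and DMSO share no block. The number stands for sex in the first pair of groups, per the labels, and for the slide in the second, per the file headers. In the first pair it also goes with slide and scan day. WT 2 and Sirt1 KO 2 were on slide 3 and were scanned on another day than all other arrays, per the file headers. Same-numbered arrays deviated from their group means together, with r = 0.74 for WT with Sirt1 KO and 0.83 for DMSO with resveratrol. Groups sharing no block did so too, though less closely: r was 0.60 between DMSO and WT arrays and 0.64 between resveratrol and Sirt1 KO arrays. Shared deviation was therefore not limited to the blocked groups, and whether same-numbered samples within them are true pairs was not tested. Nothing says whether replicates were separate cultures, so a p-value here reflects only how these samples vary, which may be technical. Slide was a further block. The p-values are not independent evidence, because the members and lists were chosen with earlier results of these data known. Array values were given for members past a test or, failing that, for the 8 (Sirt1 KO) and 5 (resveratrol) largest differences of the same sign in both pairs, and for members below background. Alternatives were normexp background correction (offset 50) on median signals, since the mean signals first planned were not used, quantile normalization, the value table, no filter, the mean of a gene's probes, no intensity trend and leaving out each array. The steps were tested on simulated data. Matches to promoter letters used RefSeq windows without the bases after the start. A single pathway gene that the naming rule covers is not reported here.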

Additional observations from a re-analysis of the deposited data

Results flagged for a closer look

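Aldoc stood out because its Sirt1 KO minus WT difference was positive in both replicate pairs and its resveratrol minus DMSO difference negative in both. The difference between them was 1.22 on the log2 scale, with a limma adjusted p of 0.0256 when the replicate number was a block and 1 when it was not. Strain, sex and slides differ between the 2 pairs of groups and cannot be told apart from the genotype and the compound there. Aldoc also had replicate 1 minus replicate 2 differences of opposite sign in WT and Sirt1 KO arrays and in DMSO and resveratrol arrays. They differed by -0.90, and this difference was not tested. Under quantile normalization the Aldoc difference in WT and Sirt1 KO was 0.47, so its sign there depends on the scaling. Car9 also had replicate differences of opposite sign in the 2 pairs of groups, which differed by -0.64, and this was not tested.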

How the results depend on the processing

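The counts of members called without a block, 0 in each group comparison, were 0 under normexp, quantile normalization, the authors' value table, no filter, the mean of probes, no intensity trend and each array left out. The replicate block gave 4 for Sirt1 KO minus WT and 2 for the Sirt1 KO effect minus the resveratrol effect, and 0 for resveratrol minus DMSO. With quantile normalization, an alternative chosen after seeing the data, these blocked counts were 2, 1 and 0. Over all genes they were 25, 24 and 37. Without quantile normalization, the block gave 57 and 73 calls over all genes for the genotype and the compound, against 0 and 0 without the block. For WT minus DMSO the planned block gave 20 members, and 16 with quantile normalization. Of all 13324 genes the same fits called 1569 and 1474. WT and DMSO share no block, so its error holds no spread between them and these counts are not a test. Without the replicate block, WT minus DMSO had 10 calls over all genes, 144 with slide as a block and 4 under normexp. Slide as a block moved the member medians to 1.01 for Sirt1 KO minus WT, 0.98 for the effect difference and -0.61 for WT minus DMSO, and normexp moved the effect difference to 0.55.

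Leaving out each array in turn gave member medians from 0.024 to 1.24 for Sirt1 KO minus WT, -0.53 to 0.74 for resveratrol minus DMSO, -0.095 to 1.30 for the effect difference and -1.32 to -0.55 for WT minus DMSO. The replicate gap enters these medians by construction. For replicate 1 minus replicate 2 the medians were 0.69 to 1.51 in WT and Sirt1 KO and 0.83 to 1.43 in DMSO and resveratrol, and the counts 19 to 21 and 17 to 22.

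Single members changed sign as follows, and the cause was not tested. In Sirt1 KO minus WT, Pfkp was -0.16 under normexp and -0.079 as the mean of probes, Car9 was -0.44 under normexp and -0.0117 under quantile normalization (with and without the block) and -0.0127 in the value table, and Pkm was -0.088 with slide as a block. In WT minus DMSO, Pfkfb4 was 0.044 under normexp and Adm 0.015 with slide as a block. In the replicate difference of WT and Sirt1 KO, quantile normalization and the value table gave 0.98 and 1.005 for Aldoa, 0.47 and 0.56 for Aldoc, 0.70 and 0.78 for Ldha and 0.62 and 0.72 for Mif, and the mean of probes gave 0.064 for Ldha. In that of DMSO and resveratrol they gave 0.23 and 0.23 for Pkm and 0.67 and 0.64 for Ldha.

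Leaving out an array sets unlike replicate numbers against each other, and by this construction some single members crossed 0. In Sirt1 KO minus WT the ranges were -0.28 to 1.62 for Slc2a1, -0.82 to 1.81 for Slc2a3, -0.080 to 0.38 for Hk1, -0.65 to 1.64 for Hk2, -0.64 to 0.82 for Pfkp, -0.42 to 1.74 for Pfkfb3, -0.73 to 1.19 for Egln1, -0.16 to 1.80 for Egln3, -0.90 to 3.76 for Vegfa, -0.42 to 1.39 for Adm, -0.28 to 0.34 for Car9, -0.054 to 2.81 for Bnip3, -0.79 to 2.71 for Ankrd37, -0.57 to 1.29 for P4ha1 and -0.085 to 0.56 for Mif. In resveratrol minus DMSO they were -1.44 to 0.57 for Hk2, -2.93 to 1.77 for Vegfa, -0.35 to 1.01 for Adm, -1.51 to 0.86 for Ankrd37 and -0.90 to 1.69 for Ero1a. In the effect difference they were -0.34 to 4.37 for Vegfa, -0.11 to 2.75 for Bnip3 and -0.23 to 3.87 for Ndrg1. In WT minus DMSO they were -1.94 to 0.13 for Slc2a3, -1.31 to 0.24 for Egln1, -1.44 to 0.20 for Adm and -1.44 to 0.21 for P4ha1.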
